A study of Mus musculus with 10 samples.

Results

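The genes described here encode the enzymes of sterol and isoprenoid synthesis in mouse MC3T3-E1 pre-osteoblasts, a cell line that came from the skull, cultured with the plant steroid β-ecdysterone. They were chosen by annotation: every gene of the deposited table with an Ensembl identifier and the KEGG term for steroid biosynthesis (ko00100) or terpenoid backbone biosynthesis (ko00900). The rule found 53 genes among 29583 rows, of which 22036 carry an Ensembl identifier. Of the 53 genes, 22 carry the first term, 31 the second and 0 both. A list of enzymes by gene symbol put 43 of them in a step of the pathway, and 10 in none.

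Cells make cholesterol and other isoprenoids from acetyl-CoA through mevalonate, which is turned into the building block isopentenyl diphosphate and then into farnesyl diphosphate. At farnesyl diphosphate the pathway divides: squalene synthase leads to lanosterol and cholesterol, while other enzymes make dolichol, the ubiquinone tail and the lipid anchors of prenylated proteins. The transcription factor SREBP-2 is known to switch on the genes of the main line when sterols are low, and liver X receptors, which bind oxysterols, are known to switch on genes of sterol export. Nitrogen-containing bisphosphonates, drugs given against bone loss, act on farnesyl diphosphate synthase.

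The labels give 1 library for each dose and day: 0 μM, 100 μM, 150 μM and 200 μM on day 5 and again on day 10, which makes 6 treated libraries and 2 controls at 0 μM. The doses of a day served as replicates, and nothing in the labels ties a library to a separate culture, so p-values measure only the spread between these libraries. A further 2 libraries, A-5 and B-4, are labelled untreated and carry no dose or time. All 10 share the strain label C57BL/6 and the age label newborn, the cells were of the third passage, and their source is given as bone marrow mesenchymal stem cells although every title names MC3T3-E1. Library totals ran from 27108562 to 58218009 counts, and a count of 0 allows up to 3 counts, or 0.0499 to 0.118 CPM, which covers counting error only. CPM is the count scaled to the library size (counts per 1e6, with TMM normalization), and FPKM also divides by transcript length, so levels of different genes are compared in FPKM alone. The osteoblast markers Runx2, Sp7, Col1a1, Col1a2, Alpl, Ibsp, Bglap, Spp1 and Sparc were all detected in treated libraries. At 0 μM, Alpl had only 0 and 2 counts. By the test defined below, 5 rose (22.6% of all genes did), 1 fell (20.8% did) and 3 did not pass. The fall was in Spp1 (log2 fold change -0.56), and Col1a1, Col1a2 and Bglap did not pass. Of 7 macrophage markers, 3 were tested and 1 rose, Lyz2, from 15.5 and 28.5 CPM at 0 μM to between 30.2 and 61.8 CPM in treated libraries. Csf1r and Cd68 were tested too and did not pass, with log2 fold changes of -0.94 and -0.46. The summed level of the 7 markers was 17.6 and 30.3 CPM at 0 μM and 31.6 to 62.9 CPM in treated libraries. Most of it came from Lyz2, with Ptprc, Adgre1, C1qa and Itgam at or near 0. The part of these markers in the results was not tested.

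Among 16794 genes tested, 46 of the 53 passed the filter on low counts. The other 7 were too low to test: Idi2, Cel, Cyp24a1, Bcas1 and Sdr42e1 reached at most 3, 7, 9, 2 and 10 counts in any library, and Cyp2r1 and Gm9745 had 0 counts in all 10. Rose and fell below mean an adjusted p under 0.05 in edgeR's quasi-likelihood test of treated cells against 0 μM with day as a covariate, and over 2-fold means a log2 fold change beyond 1 as well, the limits the study states. By this test 20 of the 46 genes fell (43.5%, against 20.8% of all genes tested) and 5 rose (10.9%, against 22.6%). Over 2-fold, 18 were lower (39.1%, against 5.98%) and 4 higher (8.7%, against 13.4%). In 22 of the 46 all 6 treated libraries lay below both libraries at 0 μM, and in 7 all 6 lay above, against 25.7% and 27% of all genes. The median log2 fold change was -0.35 over the 46 genes and 0.05 over all genes.

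The falls lay along the main line from acetyl-CoA to cholesterol. Of its 24 tested genes, 18 fell, each over 2-fold, 3 rose and 3 did not pass, and their median log2 fold change was -1.36. The fitted level at 0 μM was at the median 2.63 times the treated level in these 18, and in all 18 every treated library lay below the 0 μM library of its own day. Of the 15 tested genes outside the main line, in sterol esters, vitamin D, dolichol, ubiquinone and protein prenylation, 2 fell, 1 rose and 12 did not pass, with a median of 0.04. Bulk counts cannot tell a smaller share of cells with these transcripts from less transcript in each cell.

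**Figure D1:**
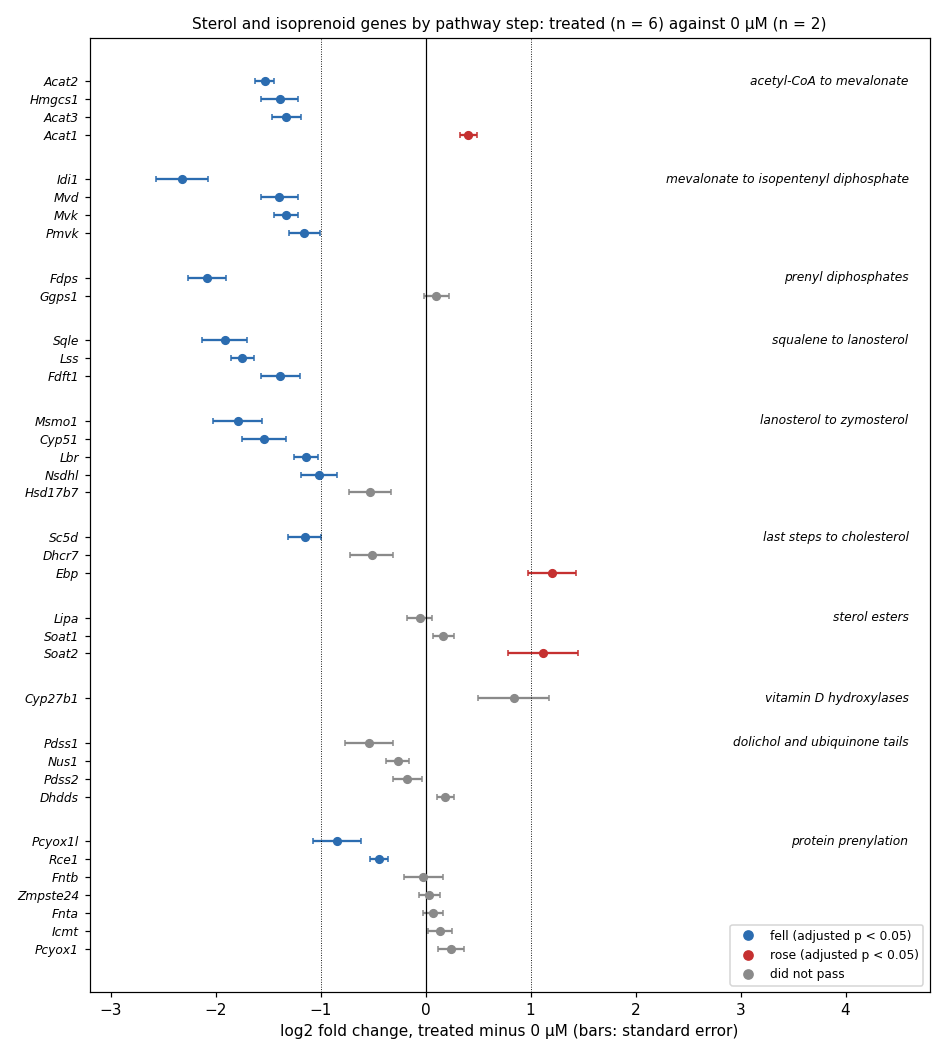
The log2 fold change of treated cells (6 libraries) against 0 μM (2 libraries) is plotted for 36 tested genes placed in a step, grouped by step from acetyl-CoA at the top, with the standard error as bars, dotted lines at -1 and 1, and blue, red and grey for genes that fell, rose or did not pass. Blue points lie left of -1 from Acat2 down to Sc5d, with Ebp at 1.21 on the other side, and the points of the lower steps lie near 0 apart from Soat2, Cyp27b1, Pdss1, Pcyox1l and Rce1.

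At the entry to the pathway, all 6 genes listed passed the test, 4 lower and 2 higher. The list takes in the mitochondrial thiolase Acat1 beside cytosolic enzymes, so the step is not of the cytosolic route alone. The cytosolic Acat2, Acat3 and Hmgcs1 all fell. Acat2, the cytosolic thiolase that joins acetyl-CoA units, stood at 125 and 126 CPM at 0 μM on days 5 and 10, and at 40.7 (lowest), 41.3 (median) and 51.7 CPM (highest) in treated libraries. The groups did not overlap, and Acat2 fell by 1.53 on the log2 scale (SE 0.09, edgeR adjusted p = 2.9e-06). Acat3, a close relative of Acat2 that lies beside it on chromosome 17, fell by 1.33 (SE 0.14, edgeR adjusted p = 7.2e-05), and reads shared with Acat2 could not be separated here. Hmgcs1, the cytosolic HMG-CoA synthase, stood at 194 and 206 CPM at 0 μM and between 53.4 and 109 CPM in treated libraries, also without overlap.

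Acat1, the mitochondrial thiolase, rose from 99.9 and 102 CPM at 0 μM to between 129 and 146 CPM in treated libraries (log2 fold change 0.41). The call was lost in each fit that used the untreated libraries, and the direction of Acat1 turned against B-4, which at 166 CPM lay above every treated library (log2 fold change -0.29).

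**Figure D2:**
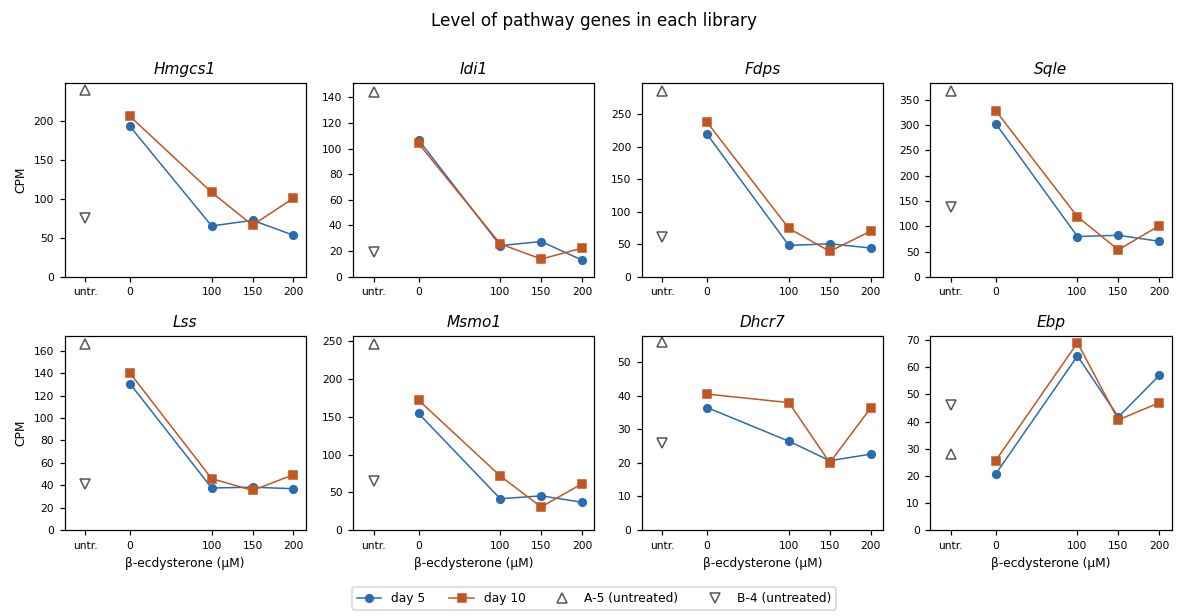
The level in CPM of 8 genes is plotted for each library against the β-ecdysterone dose, with circles for day 5, squares for day 10, and triangles at the left (untr.) for the untreated libraries A-5 and B-4, 1 library per point. Hmgcs1, Idi1, Fdps, Sqle, Lss and Msmo1 drop between 0 and 100 μM on both days with no further order by dose, Dhcr7 overlaps its controls, Ebp rises, and B-4 lies nearer to the treated points than to 0 μM for the 6 genes that dropped.

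All 4 tested genes that carry mevalonate to isopentenyl diphosphate fell. Idi1, the isomerase that makes dimethylallyl diphosphate, stood at 107 and 104 CPM at 0 μM and at 13.0 (lowest), 23.3 (median) and 27.5 CPM (highest) in treated libraries. Its log2 fold change of -2.32 (SE 0.24, edgeR adjusted p = 7.2e-05) was the lowest of the step. Mevalonate kinase, Mvk, fell by 1.33 (SE 0.11, edgeR adjusted p = 1.9e-05), from 68.0 and 79.4 CPM to between 25.8 and 35.2 CPM. Phosphomevalonate kinase, Pmvk, fell by 1.16 (SE 0.15, edgeR adjusted p = 0.000227). The decarboxylase Mvd stood at 46.1 and 48.3 CPM at 0 μM and at no more than 25.9 CPM in any treated library. Idi2, the second isomerase, had 6 counts over all 10 libraries together.

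The branch point divided. Farnesyl diphosphate synthase, Fdps (chromosome 3, 89093588 to 89101959 on GRCm38), stood at 219 and 237 CPM at 0 μM. Its treated levels were 48.1, 50.7 and 44.2 CPM at 100, 150 and 200 μM on day 5 and 74.3, 39.0 and 70.1 CPM on day 10, a log2 fold change of -2.08 (SE 0.18, edgeR adjusted p = 2.8e-05). A newly assembled locus that the authors annotated with the same KEGG ortholog as Fdps, and that carries no Ensembl identifier, had a log2 fold change of -1.96. Reads shared between this locus and Fdps could not be separated here, so its value is not independent of that of Fdps. In contrast, Ggps1, which makes geranylgeranyl diphosphate for protein prenylation, stood at 20.5 and 19.1 CPM at 0 μM and between 17.3 and 23.5 CPM in treated libraries (log2 fold change 0.10, SE 0.12, edgeR adjusted p = 0.521). Its groups overlapped.

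All 3 enzymes from farnesyl diphosphate to lanosterol fell. Squalene epoxidase, Sqle, had 303 and 329 CPM at 0 μM, and in treated libraries 53.3 (lowest, 150 μM on day 10), 80.9 (median) and 119 CPM (highest, 100 μM on day 10). It fell by 1.91 on the log2 scale (SE 0.21, edgeR adjusted p = 0.000102). Lanosterol synthase, Lss, fell from 131 and 140.3 CPM to between 35.3 and 49.3 CPM (log2 fold change -1.75, SE 0.11, edgeR adjusted p = 3.9e-06). Squalene synthase, Fdft1, had a log2 fold change of -1.38 (SE 0.18, edgeR adjusted p = 0.000286), with 105 and 114 CPM at 0 μM against at most 53.8 CPM in treated cells.

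Of the 5 enzymes that trim lanosterol, 4 fell. Msmo1, the methylsterol monooxygenase, stood at 155 and 172 CPM at 0 μM and between 30.4 and 71.5 CPM in treated libraries. Cyp51, the lanosterol demethylase, stood at 280.5 and 304 CPM and between 67.0 and 138 CPM. Neither gene's groups overlapped. Lbr, a protein of the nuclear envelope that is also a sterol reductase, fell by 1.14 (SE 0.11, edgeR adjusted p = 5e-05) and Msmo1 by 1.79 (SE 0.23, edgeR adjusted p = 0.000232), while Cyp51 had a log2 fold change of -1.54 (SE 0.21, edgeR adjusted p = 0.000295). Nsdhl, the sterol dehydrogenase, fell by 1.01. Hsd17b7, the sterol ketoreductase, stood at 49.7 and 53.9 CPM at 0 μM and at 28.9, 33.9 and 25.8 CPM on day 5, but at 55.2, 30.3 and 46.5 CPM on day 10, and did not pass (log2 fold change -0.53, edgeR adjusted p = 0.0538; DESeq2 gave 0.0349). Tm7sf2, a second sterol reductase beside Lbr that does not carry the KEGG term, ran from 51.5 to 61.5 CPM in treated libraries against 60.5 and 64.5 CPM at 0 μM and did not pass (log2 fold change -0.12).

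The last steps to cholesterol moved in different directions. Sc5d, the sterol desaturase, fell by 1.15 (SE 0.16, edgeR adjusted p = 0.000321). Ebp, the sterol isomerase that supplies the substrate of Sc5d (chromosome X), rose from 20.6 and 25.6 CPM at 0 μM to 64.2, 41.7 and 57.0 CPM on day 5 and 69.1, 40.6 and 46.9 CPM on day 10. Every treated library was above both controls (log2 fold change 1.21, SE 0.23, edgeR adjusted p = 0.00219). The call for Ebp was lost against A-5 (27.9 CPM, log2 fold change 0.94, edgeR adjusted p = 0.0539) and against B-4 (46.3 CPM, within the treated range, log2 fold change 0.22, edgeR adjusted p = 0.606). Dhcr7, the final reductase, stood at 36.5 and 40.5 CPM at 0 μM and between 20.0 and 37.9 CPM in treated libraries, with overlapping groups and an edgeR adjusted p of 0.0709 (log2 fold change -0.51).

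Per transcript length, the order of levels changed with treatment. At 0 μM the highest mean levels were those of Fdps (170.2 FPKM), Sqle (104 FPKM), Msmo1 (73.8 FPKM), Cyp51 (67.6 FPKM) and Hmgcs1 (54.7 FPKM). In treated cells the leading genes were Pbxip1 (41.7 ± 5.86 FPKM, SD, n = 6), Fdps (39.4 ± 9.90), Pcyox1 (38.0 ± 5.73), Acat1 (34.5 ± 1.20) and Fnta (33.4 ± 2.39). Pbxip1 is in no step, carries its term by similarity to a gene of another species, and had a mean of 40.5 FPKM at 0 μM. Sqle ranked 6, Cyp51 8, Msmo1 11 and Hmgcs1 12 among the 53 genes.

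The summed level of the main line was 2559 and 2718 CPM at 0 μM on days 5 and 10. In treated cells the sums were 996, 1003 and 905 CPM at 100, 150 and 200 μM on day 5 and 1334, 854 and 1235 CPM on day 10. The treated mean was 1055 ± 189 CPM (SD, n = 6), or 40% of the mean at 0 μM. The part from squalene on stood at 36.7% and the part before it at 44.7% of the mean at 0 μM. The sum over the 7 protein prenylation genes was 404 and 408 CPM at 0 μM and ran from 392 to 484 CPM in treated libraries, which is 107% in the mean.

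**Figure D3:**
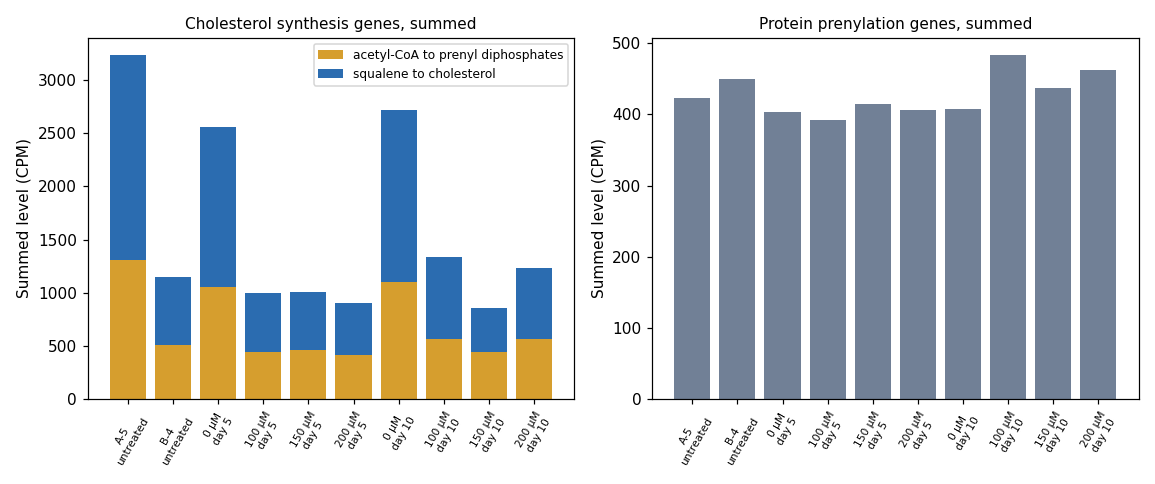
Bars give, for each of the 10 libraries, the summed CPM of the main line (left, divided into acetyl-CoA to prenyl diphosphates and squalene to cholesterol) and of the 7 protein prenylation genes (right). The left bars reach 2559 and 2718 CPM at 0 μM and 3236 CPM in A-5, against 854 to 1334 CPM in treated libraries and 1149 CPM in B-4, while the right bars all lie between 392 and 484 CPM.

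The untreated libraries did not match each other. In B-4 the main line summed to 1149 CPM, or 43.5% of the mean at 0 μM, and in A-5 to 3236 CPM, or 123%. For all 18 genes that fell, B-4 lay below both libraries at 0 μM (41.2% of all genes did), within the range of the treated libraries for 14 of them, below it for 3 and above it for 1. A-5 lay above both libraries at 0 μM for 15 of the 18 and below both for 3 (41.8% of all genes lay below). How many of all genes lay above both in A-5, or within the treated range in B-4, was not counted. Between these single libraries, B-4 was over 2-fold below A-5 for all 18 genes, and for 20 of the 46, against 11.2% of all genes. With B-4 alone as control, edgeR called 2 genes lower, Bola2 and C330018D20Rik, 0 of them over 2-fold and 0 of the 20 named as fallen above, and with A-5 alone it called 20 lower, 18 of them among the 20 (Pcyox1l and Rce1 were lost, Hsd17b7 and Dhcr7 gained). The labels do not say how A-5 and B-4 differ, and what sets them apart was not tested.

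The 15 tested genes of other branches stayed closer to their controls. Among sterol ester genes, Soat2, a cholesterol acyltransferase mainly of liver and intestine, rose from 0.730 and 0.665 CPM to between 0.965 and 1.91 CPM (log2 fold change 1.12, SE 0.33, edgeR adjusted p = 0.0217), a call that was lost when either library at 0 μM was left out (edgeR adjusted p = 0.113 and 0.116). Soat1, the widely expressed form, had a log2 fold change of 0.17 (SE 0.10, edgeR adjusted p = 0.202) and the lysosomal lipase Lipa one of -0.05 (SE 0.12, edgeR adjusted p = 0.731). Cyp27b1, which makes active vitamin D, stood at 1.10 and 1.74 CPM at 0 μM and between 1.81 and 3.50 CPM in treated libraries, without overlap, yet it did not pass (log2 fold change 0.84, SE 0.34, edgeR adjusted p = 0.0677). Cyp27b1 did pass by DESeq2 (adjusted p = 0.035), with the filter of at least 10 counts in every library and with a covariate for depth. None of the 4 genes for dolichol and ubiquinone tails passed, with edgeR adjusted p between 0.0747 and 0.34. Nus1, a subunit of the dolichol-forming prenyltransferase, had a log2 fold change of -0.27 (SE 0.11), Pdss1, which builds the ubiquinone tail, one of -0.54 (SE 0.23), and Dhdds, the partner of Nus1, one of 0.19 (SE 0.08).

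Of the 7 protein prenylation genes, 2 fell, where 20.8% of all genes tested fell. Rce1, the protease that trims prenylated proteins, stood at 28.1 and 31.1 CPM at 0 μM and between 20.0 and 23.6 CPM in treated libraries (log2 fold change -0.44, SE 0.09, edgeR adjusted p = 0.00272). Pcyox1l, named for its likeness to prenylcysteine oxidase, fell by 0.85 (SE 0.23, edgeR adjusted p = 0.0137), a call lost without either library at 0 μM (edgeR adjusted p = 0.0519 and 0.138). Pcyox1, the oxidase itself, had a log2 fold change of 0.24 (SE 0.13, edgeR adjusted p = 0.146). The farnesyltransferase subunits Fnta and Fntb, the methyltransferase Icmt and the protease Zmpste24 had log2 fold changes between -0.02 and 0.14, and their groups overlapped.

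The 10 genes in no step carry the KEGG term through sequence similarity, and for 9 of them the best hit was a gene of another species. The exception is Gm9745, whose protein name is that of the isopentenyl diphosphate isomerase Idi2. Several lie beside or over the enzyme whose term they share: Churc1 overlaps Fntb, Gm960 ends 92 bases from Rce1, and Pbxip1 lies 3588 bases from Pmvk. The counting program is not given in the sources used here, so reads of such neighbours could not be told apart. Of the 7 tested, Gm960 rose over 2-fold (log2 fold change 1.35, SE 0.27, edgeR adjusted p = 0.00302), from 0.809 and 0.728 CPM to between 1.66 and 2.72 CPM, a call lost without the day 10 library at 0 μM (edgeR adjusted p = 0.0519). The other 6 (Bola2, C330018D20Rik, Churc1, Lrrd1, Pbxip1 and Rbm48) did not pass, with log2 fold changes between -0.26 and 0.28.

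Between days, 1 of the 45 genes tested in the 6 treated libraries differed, higher on day 10 (2.08% of all genes were higher and 0.718% lower). At an unadjusted p under 0.05 there were 8, and DESeq2 called 2, Pcyox1 among them. A trend with dose from 100 to 200 μM was called for 0 genes by edgeR (0% of all genes), also at an unadjusted p under 0.05, and for 0 by DESeq2, with 2 unadjusted. The treatment effect differed between days for 0 of the 46 genes by edgeR (0.0119% of all genes) and by DESeq2, with 3 at an unadjusted p under 0.05 by each tool. This test rests on 1 library at 0 μM per day.

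Within the treated libraries, 150 μM on day 10 stood lowest. It held the lowest level for 10 of the 18 main-line genes that fell (55.6%, against 15.4% of all genes). Of the 18, 200 μM on day 5 was lowest for 6 and 100 μM on day 10 highest for 10, neither counted over all genes. The highest treated level was between 1.27 and 2.57 times the lowest. Without this library, 8 genes differed between days, all higher on day 10, among them Pcyox1, Mvd, Hsd17b7, Msmo1, Dhcr7, Fdps and Hmgcs1 with log2 differences between 0.51 and 0.78. Calls over all genes did not rise with them, and were somewhat fewer than with all 6 treated libraries. Without the 200 μM library of day 5, 0 differed. Few of all genes were called in that fit either, so this 0 is not particular to these genes.

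Of 17 genes listed for sterol sensing and transport, 16 were tested, 5 rose and 6 fell, with a median log2 fold change of 0.01. Of all genes tested, 22.6% rose and 20.8% fell. Insig1, which holds SREBP in the endoplasmic reticulum when sterols are high and is itself a target of SREBP, stood at 166 and 162 CPM at 0 μM and between 27.9 and 50.3 CPM in treated libraries (log2 fold change -2.20, SE 0.19, edgeR adjusted p = 2.2e-05). Srebf2, which encodes SREBP-2, fell by 1.24 on the log2 scale. Stard4, a cholesterol carrier, fell by 2.03. Abca1, the exporter of cholesterol, stood at 1.40 and 1.11 CPM at 0 μM and between 18.2 and 35.5 CPM in treated libraries (log2 fold change 4.25, SE 0.28, edgeR adjusted p = 4.7e-06). Others on the list did not rise with it. Srebf1 fell by 0.57, Mylip did not pass (log2 fold change -0.17), and Abcg1, at most 4 counts in any library, was not tested. A part of liver X receptors was not tested. Npc1, which moves cholesterol out of lysosomes, rose by 1.07. In B-4, Insig1 stood at 43.0 and Abca1 at 17.0 CPM, and in A-5 at 235 and 4.58 CPM. B-4 thus lay nearer to the treated libraries for both genes. Insig2 differed, with 87.1 CPM in B-4 and 95.9 and 89.5 CPM at 0 μM. Its treated libraries ran from 42.0 to 78.1 CPM.

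**Figure D4:**
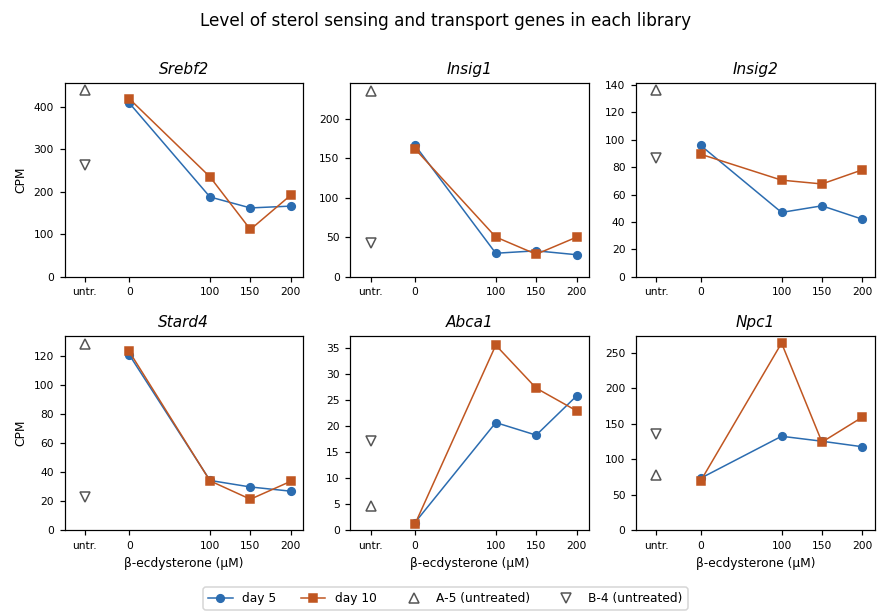
The level in CPM of 6 sterol sensing and transport genes is plotted for each library against the β-ecdysterone dose, with circles for day 5, squares for day 10 and triangles at the left (untr.) for A-5 and B-4, 1 library per point. Srebf2, Insig1, Insig2 and Stard4 are lower at 100 μM than at 0 μM on both days, while Abca1, at 1.40 and 1.11 CPM at 0 μM, and Npc1 rise.

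Of 9 genes listed for accessory proteins and substrate supply, 5 fell and 4 did not pass, and edgeR called 0 higher (0 at an unadjusted p under 0.05, and 0 by DESeq2). Those that fell include Tmem97, a sterol-regulated membrane protein, with a log2 fold change of -1.34, and Acly, which makes cytosolic acetyl-CoA, with -0.98. Of 6 further genes that use prenyl groups, 2 fell, Coq2 by 0.39 and Rabggta by 0.43, where 20.8% of all genes tested fell. Proliferation markers were lower in treated cells as well: all 10 listed fell. Their summed level was 2355 and 2628 CPM at 0 μM and 661 to 1201 CPM in treated libraries. It was 1577 CPM in A-5 and 199.8 CPM in B-4. In A-5 this sum lay below both libraries at 0 μM, where that of the main line (3236 CPM) lay above both. In B-4 it lay below every treated library, where that of the main line (1149 CPM) lay within their range. The part of the proliferation markers in the lower main-line levels was not tested.

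Promoter windows, from 250 bases before to 50 after a RefSeq start (RefSeq table, GRCm38.p6), were held for 37 of the 53 genes. They were searched on both strands for the sterol regulatory element TCACNCCAC, the inverted CCAAT box ATTGG and the GC box GGGCGG, the first being the SREBP site and the others the sites of its usual partners NF-Y and Sp1. A match is a description of letters, and no match says only that they are not in this window. The sterol regulatory element matched in 1 gene, Hmgcs1, and in 1.44% of 27025 genes with a window. The window around it, 162 to 103 bases before the start on the plus strand at chr13:119690189-119690248, is shown because it is the single match, with the element in capitals.
Hmgcs1: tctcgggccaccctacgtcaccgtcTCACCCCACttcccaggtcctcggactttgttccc

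The inverted CCAAT box was held by 11 of the 12 main-line genes that fell and have a window, and the GC box by 11 of the 12, against 41.1% and 38.2% of all genes. Of 12 tested genes of the other branches with a window, 7 held the CCAAT box and 9 the GC box. The boxes are therefore not particular to the main line. All 4 main-line genes with a window that rose or did not pass held the first as well, and 3 held the second. The 90 bases before the start are shown for 4 of them, chosen after their values were seen, with CCAAT boxes of either strand in capitals: Mvk (chr5:114444179-114444268, plus strand) and Mvd (chr8:122443423-122443512, minus strand) as enzymes of the same step that both fell, and Sc5d (chr9:42264301-42264390, minus strand) and Ebp (chrX:8193513-8193602, minus strand) as successive enzymes of which one fell and one rose.
Mvk: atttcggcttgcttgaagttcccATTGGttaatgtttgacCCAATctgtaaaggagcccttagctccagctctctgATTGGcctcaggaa
Mvd: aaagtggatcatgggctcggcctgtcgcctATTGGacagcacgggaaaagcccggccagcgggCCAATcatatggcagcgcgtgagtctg
Sc5d: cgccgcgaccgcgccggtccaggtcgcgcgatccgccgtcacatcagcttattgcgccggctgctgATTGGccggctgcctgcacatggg
Ebp: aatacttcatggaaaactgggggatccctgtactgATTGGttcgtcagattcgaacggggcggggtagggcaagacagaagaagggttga
Mvk holds 3 such boxes in this stretch, Mvd 2, and Sc5d and Ebp 1 each. In the whole window of 300 bases Ebp holds 2 and Sc5d 1.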

How the data were processed

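MC3T3-E1 cells were cultured with 0 to 200 μM β-ecdysterone and their mRNA, enriched on oligo(dT) beads, was sequenced on the Illumina platform. The authors deposited 1 table with the raw count of reads per gene, without normalization, for 10 libraries. The same table holds FPKM values, which the authors scaled to transcript length and library size. It also holds the authors' own edgeR comparisons (p-values and fold changes), which were not used. The submitters' processing notes name HISAT2 2.0.4 and GATK 3.2-2 without their role; the counting program, annotation version and genome build are not given in the sources used here.

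Counts were analysed with edgeR 4.0.16 (TMM, filterByExpr, quasi-likelihood test, Benjamini-Hochberg adjustment over all genes) in R 4.3.3, with DESeq2 1.42.0 and limma 3.58.1 on log2(FPKM + 1) as alternatives. The 6 treated libraries were compared with the 2 at 0 μM with day as a covariate. Within treated libraries, day was tested with the doses as replicates, and dose as a number with day as a covariate. Difference of the effect between days was tested with 4 groups of treatment and day. CPM used TMM scaling over all 10 libraries. Standard errors were taken from the coefficient and its F statistic. The scripts were tested on simulated data. Gene positions came from GENCODE M21 (GRCm38) by Ensembl identifier, found for all 53 genes, and promoters from a RefSeq table.

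The results for some genes are not reported here, though counts and sums include them. The genes and lists were chosen with earlier results of these data known. Full statistics are given, within each step, for up to 3 genes with the lowest adjusted p, and for genes called in other tests. The 2 lowest of each further list were named, and for sterol sensing and transport also Insig1, Insig2, Srebf1, Srebf2, Mylip, Abcg1 and Npc1. Others were given by counts. Alternatives were other normalizations and filters, no day covariate, the untreated libraries as controls and each library left out. A covariate for depth (library totals on either side of 40000000 counts) was added after seeing the data. Listed markers of other cells were also tested: of 7 adipocyte markers 4 were tested and edgeR called 0 (0 at an unadjusted p under 0.05, and 0 by DESeq2), of macrophage markers 1 rose (Lyz2), of muscle markers 2 (Des and Ckm), and of hepatocyte and steroidogenic markers 1 (Star).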

Additional observations from a re-analysis of the deposited data

Results flagged for a closer look

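Of the 46 genes tested for a library that stands apart among the 6 treated ones by Dixon's test, 2 were marked, where chance marks about 5%. Acat1 stood at 146 CPM at 100 μM on day 10, and the next highest treated library at 135 CPM. Acat2 stood at 51.7 CPM at 200 μM on day 10, and the next highest at 44.7 CPM. Neither library changes the direction of its gene, which lay wholly above (Acat1) or below (Acat2) both libraries at 0 μM.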

How the results depend on the processing

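The choice of control moved the counts most. With A-5 and B-4 together as the controls, 1 gene rose in place of 5 and 11 fell in place of 20, with 1 over 2-fold higher in place of 4 and 10 over 2-fold lower in place of 18. Calls over all genes, in either direction, also dropped with both untreated libraries and with either one alone. A smaller count is therefore not in itself particular to these genes. The loss of falls against B-4 went beyond that general drop, which was similar with A-5, where the falls stayed. Over the 46 genes the median log2 fold change was -0.25 against A-5 and -0.0016 against B-4. Over all genes it was 0.05 and 0.04. With A-5 alone, 1 rose and 1 was over 2-fold higher, and 20 fell. With B-4 alone, 2 rose, 1 of them over 2-fold, 2 fell and 0 were over 2-fold lower by edgeR; DESeq2 was not run with this control. The log2 fold change of Acat1 turned to -0.089 with both untreated libraries and to -0.29 with B-4. With B-4 alone it also turned to 0.060 for Acat2, 0.058 for Hmgcs1, 0.0093 for Pcyox1l, 0.13 for Idi1, 0.27 for Mvd, 0.43 for Pmvk, 0.052 for Cyp51, 0.61 for Lbr (edgeR adjusted p = 0.0412), 0.47 for Nsdhl and -0.96 for Bola2 (edgeR adjusted p = 0.0213); the cause was not tested.

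By limma on FPKM, 2 genes were over 2-fold higher, and the pseudocount shrinks low genes by construction. Leaving out each library in turn gave 3 to 5 genes that rose, 19 to 22 that fell, 2 to 4 over 2-fold higher and 17 to 18 over 2-fold lower, the lowest counts of rises without the day 10 library at 0 μM. For the day comparison, DESeq2 and the filter of at least 10 counts in every library each gave 2 genes, and leaving out 1 library gave 0 (without 200 μM on day 5) to 8 (without 150 μM on day 10). Calls over all genes fell to a small part without 200 μM on day 5, and dropped only somewhat without 150 μM on day 10. DESeq2, library totals, DESeq2 size factors, no day covariate and the depth class each kept all 20 falls and 5 rises. No paired analysis by replicate number was possible because the labels give none; day was a covariate of the comparison with 0 μM, and dose as a factor added to the day comparison also gave 1 gene. A leave-one-out arm with 1 library at 0 μM assumes that it varies like the treated ones.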
